A study of Homo sapiens with 4 samples.

Results

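Among the protein-coding genes that NB4 leukemia cells expressed, 33 were nearly silenced after GNE987. A gene was taken when it reached at least 1 FPKM, which is a read level scaled by exon length and by library, in both control libraries and stayed at or below 0.2 FPKM in both GNE987 libraries. Zinc finger genes named ZNF, HOX genes and histone genes were left aside by name, which removed 1 gene. The 33 are 0.365% of the 9035 protein-coding genes with at least 1 FPKM in both control libraries, out of 19818 protein-coding genes outside chrM and 58735 listed genes. The same values chose the genes, so their levels and falls are a description and were given no test.

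RNA was sequenced from 2 libraries of cells labelled NB4 and not treated (control) and 2 libraries of NB4 cells treated with GNE987 at 25 nM for 24 h. NB4 is a human cell line derived from acute promyelocytic leukemia. The labels name the treatment, and the dose and time come from a figure legend of the study. The labels do not say whether libraries 1 and 2 of a group came from separate cultures, so differences between them may be technical.

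GNE987 is a degrader that brings BET proteins to a ubiquitin ligase. BET proteins bind acetylated histones at promoters and enhancers and help RNA polymerase II to leave the promoter and elongate. Genes differ in how far they depend on this step, and a transcript also has to decay before a stop in its synthesis shows in the RNA. In bulk RNA, fewer cells of a type and less RNA per cell cannot be told apart.

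The depth sets how far "nearly silenced" can be read. The steps of the deposited values gave 19334655 and 19140303 gene reads for control and 12365567 and 12869350 for GNE987. The FPKM were scaled to other totals, 23024012 and 22120718 reads for control and 8360488 and 8826052 for GNE987. These are 1.19 and 1.16 times the gene reads in control and 0.676 and 0.686 times with GNE987. GNE987 values thus stand higher against control than they would on gene reads, and the folds below use the deposited scale. A level of 0.2 FPKM stood for 1.67 and 1.77 reads per kilobase of exon in the GNE987 libraries, whereas 1 FPKM stood for 23.0 and 22.1 reads per kilobase in the control libraries. Over both GNE987 libraries the 33 genes held between 2 and 56 reads each, with a median of 11, against 103 to 1307 reads with a median of 322 in the control libraries. The control libraries went against the labelled cell type, and the cells are called NB4 here by their label only. The granule genes CTSG and ELANE were at 0 in both control libraries and MPO at 0.0246 and 0 FPKM, and 4 of 9 granulocytic markers were under 0.1 FPKM in both control libraries. The erythroid factors GATA1 and KLF1 stood at 124 and 122 FPKM and at 85.2 and 85.9 FPKM in control. The summed level of 9 granulocytic markers was 5.42 and 5.50 FPKM in control and 34.0 in both GNE987 libraries, and that of 9 erythroid markers was 503 to 580 FPKM in all 4 libraries. The erythroid sum joined opposite moves, since 5 markers lay below both control libraries with GNE987 (GATA1 at 15.1 and 12.5 FPKM, KLF1 at 27.3 and 24.8 FPKM, with EPOR and TFRC among the others) and 4 above both (HBG1, HBG2, HBZ and ALAS2). Whether a change in cell state had a part in the falls was not tested.

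**Figure D1:**
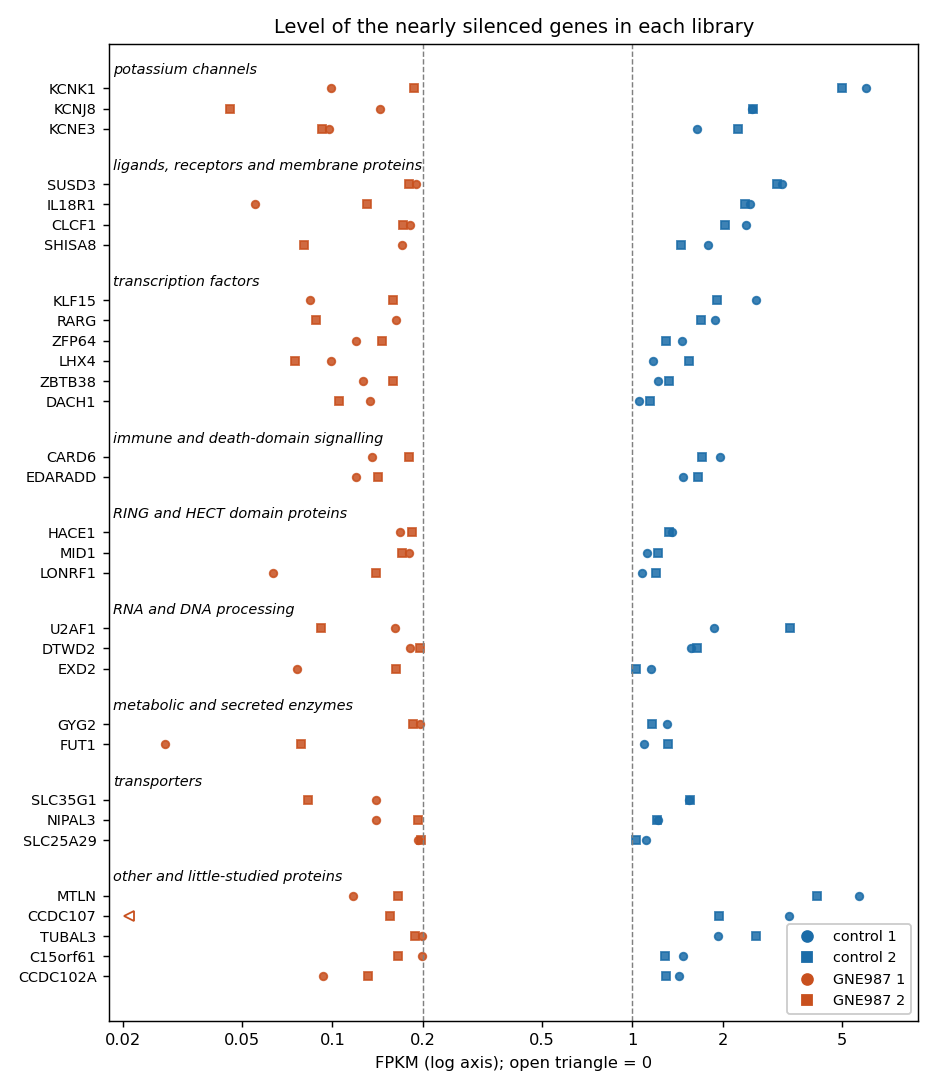
Level of 31 of the 33 genes in FPKM (log axis) in control libraries 1 and 2 (blue) and GNE987 libraries 1 and 2 (orange), by function, with dashed lines at the thresholds of 0.2 and 1 FPKM. The single open triangle is CCDC107 at 0 in GNE987 library 1. Every control point lies to the right of 1 FPKM and every GNE987 point to the left of 0.2 FPKM, as the choice of genes requires.

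The promoter sequences show how unlike these genes are. The windows are RefSeq's, on build GRCh38.p14, and the 150 bases before the annotated start are printed 5′ to 3′ on the gene's strand with each CG in capitals. The 3 potassium channel genes are shown because they form the group with the largest falls, KLF15 and ZBTB38 because they hold the highest and lowest CpG content of all 28 matched promoters, and FUT1 because it comes next to ZBTB38. They lie at chr1:233613956-233614105 (plus strand), chr12:21774707-21774856 (minus), chr11:74467550-74467699 (minus), chr3:126357409-126357558 (minus), chr19:48755359-48755508 (minus) and chr3:141324036-141324185 (plus).
KCNK1: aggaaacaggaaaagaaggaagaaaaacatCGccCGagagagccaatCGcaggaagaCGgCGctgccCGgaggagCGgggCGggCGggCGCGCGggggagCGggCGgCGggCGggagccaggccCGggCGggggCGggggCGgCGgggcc
KCNJ8: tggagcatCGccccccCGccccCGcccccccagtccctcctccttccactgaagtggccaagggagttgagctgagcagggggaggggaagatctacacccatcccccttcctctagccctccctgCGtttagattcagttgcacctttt
KCNE3: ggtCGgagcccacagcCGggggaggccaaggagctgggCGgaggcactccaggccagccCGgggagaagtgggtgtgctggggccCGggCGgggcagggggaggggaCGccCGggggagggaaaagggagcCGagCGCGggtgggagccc
KLF15: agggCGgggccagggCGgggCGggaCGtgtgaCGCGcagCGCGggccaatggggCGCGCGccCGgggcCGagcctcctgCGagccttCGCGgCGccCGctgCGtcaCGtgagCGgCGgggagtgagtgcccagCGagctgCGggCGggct
FUT1: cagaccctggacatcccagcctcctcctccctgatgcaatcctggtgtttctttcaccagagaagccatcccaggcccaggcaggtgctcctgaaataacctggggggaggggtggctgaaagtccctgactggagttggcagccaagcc
ZBTB38: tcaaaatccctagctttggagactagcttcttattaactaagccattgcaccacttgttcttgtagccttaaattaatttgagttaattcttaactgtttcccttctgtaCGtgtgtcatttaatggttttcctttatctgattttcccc

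In these 150 bases KLF15 had 25 CG pairs, KCNK1 21, KCNE3 11, KCNJ8 4, ZBTB38 1 and FUT1 0. The CpG ratio, which is the count of CG over that which the base composition predicts, was taken over the full 300 bases from 250 before to 50 after the start. Its median was 0.732 in 28 of the 33 genes, 5 having no window in the table, against 0.865 in 7479 other expressed genes. A ratio under 0.65 was found in 10 of 28 genes (35.7%) and in 1124 of the others (15%). The lowest ratios were those of ZBTB38 (0.0755), FUT1 (0.117), CARD6 (0.234) and TUBAL3 (0.271), and the highest those of KLF15 (1.06), KCNK1 (1.06) and CCDC107 (1.04). GC content hardly separated the groups, with medians of 66.0% and 65.7%. The other expressed genes were not limited to those with the low starting levels of the set.

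**Figure D2:**
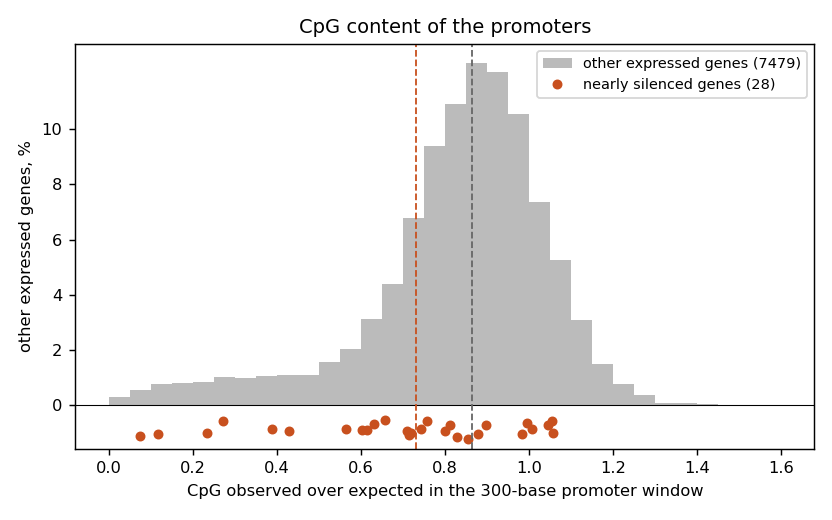
CpG observed over expected in the promoter window for 7479 other expressed protein-coding genes (grey bars, share in %) and for 28 nearly silenced genes (orange points, spread vertically only to be seen). Dashed lines are the medians of 0.732 (orange) and 0.865 (grey), and 4 of the orange points lie under 0.3.

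Short motifs were then counted on both strands of the same windows. The letters GGGCGG, the core of GC boxes, were present in 16 of 28 genes (57.1%), in 72.9% of the other expressed genes and in 44.6% of all 27305 promoters in the table. CCGGAA, a core of ETS factor sites, was present in 5 of 28 (17.9%) against 34.3% of the other expressed genes. TATAAA was present in CCDC107, HACE1 and KCNK1, which is 10.7% against 4.95%. GATAA, the core of GATA sites, was present in CARD6, DACH1, TUBAL3 and ZBTB38, or 14.3% against 13.0%. These are counts of letters in a window and say nothing of binding.

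The 3 potassium channel genes fell furthest as a group, by 20.4 to 38.2-fold, on 4 to 9 GNE987 reads each. Single genes of another group, MTLN and CCDC107, fell further than KCNJ8 and KCNE3. IL18R1 (25.9-fold), FUT1 (22.4-fold) and U2AF1 (20.7-fold, without its copy) also fell further than KCNE3. The groups are small and were formed by hand, and counting intervals overlap between them, so this order is a description only. Potassium channels set the membrane potential and cell volume, and the 3 channel genes encode parts of different channel classes. KCNK1 (ENSG00000135750, chr1:233614106-233672514, plus strand) encodes TWIK1, a two-pore-domain channel, and had 6.01 and 4.99 FPKM in the control libraries and 0.0989 and 0.187 FPKM in the GNE987 libraries. It had 902 control reads against 9 with GNE987 and was 38.2-fold lower (95% counting interval 20.01 to 83.7). Of the 9035 expressed genes, only 1 kept a smaller share of its control level. KCNJ8 (ENSG00000121361, chr12:21764955-21775600, minus strand) encodes Kir6.1, a pore subunit of ATP-sensitive potassium channels, and had 2.50 and 2.53 FPKM in the control libraries and 0.144 and 0.0456 FPKM in the GNE987 libraries. The control libraries lay close together, and the fall of 26.8-fold rested on 282 control reads against 4 with GNE987. KCNE3 (ENSG00000175538, chr11:74454841-74467729, minus strand) encodes an accessory subunit of voltage-gated channels and had 1.64 and 2.25 FPKM in the control libraries and 0.0976 and 0.0924 FPKM in the GNE987 libraries. Its control libraries differed more than its GNE987 libraries, and it was 20.4-fold lower (95% counting interval 9.28 to 56.1).

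Other genes of the channel family did not share the direction. Of 15 further potassium channel genes that could be tested, 4 were lower (26.7%) and 9 higher (60.0%) at an unadjusted p under 0.05 and a fold over 2 in limma. Over all 10983 protein-coding genes tested, 31.7% were lower and 23.9% higher (over all 16668 tested genes, 24.9% and 33.6%). KCNE4, another accessory subunit, rose from 0 in both control libraries to 16.7 and 17.6 FPKM. Of known channel partners of the 3 genes, chosen from textbook knowledge after values were seen, KCNQ1 rose from 0 to 1.32 and 1.71 FPKM. ABCC9, the receptor subunit that joins Kir6.1, had at most 0.0195 FPKM in any library.

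The receptor and ligand group held IL18R1, CLCF1, SUSD3 and SHISA8. IL18R1 (ENSG00000115604, chr2:102311529-102398777, plus strand) encodes the chain of the interleukin 18 receptor that binds the cytokine, and had 2.46 and 2.38 FPKM in the control libraries and 0.0550 and 0.130 FPKM in the GNE987 libraries. Both control libraries were close together and far above both GNE987 libraries, and the gene was 25.9-fold lower (95% counting interval 12.5 to 64.7). IL18RAP, the second chain of that receptor, stands next to it on chromosome 2 and was at 0.864 and 0.823 FPKM in control and 0.0403 and 0 FPKM with GNE987, or 59 and 54 reads against 1 and 0. IL18RAP began below the control threshold and its mean was too low for the test. Interleukin 18 itself had at most 2 reads in any library.

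CLCF1 (ENSG00000175505, chr11:67364168-67374177, minus strand), a cytokine of the interleukin 6 family, had 2.40 and 2.04 FPKM in the control libraries and 0.182 and 0.172 FPKM in the GNE987 libraries. SUSD3 (ENSG00000157303, chr9:93058688-93085133, plus strand), a small membrane protein with a sushi domain, had 3.16 and 3.04 FPKM in the control libraries and 0.189 and 0.179 FPKM in the GNE987 libraries. In SUSD3 the GNE987 values stood for 2 reads in each library, so its fall of 16.8-fold has a wide 95% counting interval, 6.46 to 62.5. SHISA8 (ENSG00000234965, chr22:41909543-41915074, minus strand), a membrane protein of the Shisa family, had 1.79 and 1.45 FPKM in the control libraries and 0.170 and 0.0806 FPKM in the GNE987 libraries. It had the fewest control reads of the 33 (103 control reads against 3 with GNE987) and was 13.1-fold lower (95% counting interval 4.35 to 64.4). CLCF1 was 12.6-fold lower (95% counting interval 5.67 to 34.6), and none of the 4 genes overlapped between the groups, as the choice of genes requires.

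Of the 13 other interleukin 1 and 18 pathway genes tested, 6 were lower (46.2%) and 1 was higher (7.69%), and of the 7 interleukin 6 family genes, 1 was lower (14.3%) and 3 were higher (42.9%). Over all protein-coding genes tested, 31.7% were lower and 23.9% higher. TAB1, which binds the kinase TAK1, fell from 6.64 and 7.40 to 0.993 and 0.966 FPKM, while IL1B rose from 0.0281 and 0.0584 to 1.35 and 1.61 FPKM. IL6R rose from 0.0471 and 0.0490 to 2.13 and 2.16 FPKM, and IL27RA fell from 6.23 and 7.49 to 1.74 and 2.30 FPKM. Of the signalling chains that CLCF1 uses, IL6ST rose from 2.80 and 2.78 to 6.28 and 6.18 FPKM in the deposited scale, but its fold turned to a fall when the libraries were scaled to GAPDH, and LIFR was at 0.340 and 0.305 FPKM in control and 0.111 and 0.124 FPKM with GNE987.

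Sequence-specific transcription factors were the largest group, with 6 genes. KLF15 (ENSG00000163884, chr3:126342635-126357408, minus strand), a Krüppel-like zinc finger factor of metabolic tissues, had 2.58 and 1.92 FPKM in the control libraries and 0.0840 and 0.159 FPKM in the GNE987 libraries. RARG (ENSG00000172819, chr12:53210567-53232980, minus strand), a nuclear receptor for retinoic acid, had 1.89 and 1.69 FPKM in the control libraries and 0.163 and 0.0884 FPKM in the GNE987 libraries. LHX4 (ENSG00000121454, chr1:180230264-180278984, plus strand), a LIM homeodomain factor of pituitary development, had 1.18 and 1.54 FPKM in the control libraries and 0.0987 and 0.0748 FPKM in the GNE987 libraries. The GNE987 libraries held 6 reads of KLF15, 11 of RARG and 9 of LHX4, and the genes were 18.4-fold, 14.4-fold and 15.7-fold lower. LHX4 shares 1866 exon bases with ACBD6 on the opposite strand, which stood at 12.7 and 12.6 FPKM in control and at 6.03 and 6.55 FPKM with GNE987. Without a statement that strand was used in counting, reads in those bases cannot be told apart.

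ZFP64 (ENSG00000020256, chr20:52051663-52204308, minus strand), a zinc finger factor, had 1.46 and 1.29 FPKM in the control libraries and 0.120 and 0.146 FPKM in the GNE987 libraries. ZBTB38 (ENSG00000177311, chr3:141324213-141449792, plus strand), a zinc finger protein that binds methylated DNA, had 1.22 and 1.32 FPKM in the control libraries and 0.126 and 0.159 FPKM in the GNE987 libraries. DACH1 (ENSG00000276644, chr13:71437966-71867204, minus strand), a corepressor that works with EYA proteins, had 1.06 and 1.15 FPKM in the control libraries and 0.133 and 0.105 FPKM in the GNE987 libraries. These 3 genes began at little over the threshold of 1 FPKM, and the falls were 10.4-fold, 8.89-fold and 9.28-fold. ZBTB38 had one of the best supported falls in the set, with 817 control reads against 35 with GNE987 and an interval of 6.34 to 12.8.

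The related receptor RARA went the other way from RARG. RARA, the alpha receptor for retinoic acid, rose from 6.56 and 5.43 to 38.9 and 39.5 FPKM, a log2 fold change of 2.70 (SE 0.11, adjusted p = 0.000248, limma with Benjamini-Hochberg adjustment). RXRA, the partner with which retinoic acid receptors bind DNA, fell from 2.67 and 2.52 to 0.626 and 0.603 FPKM, and RARB had at most 0.0971 FPKM in any library. Among LIM homeodomain, LMO and LDB genes, 5 of 5 others tested were lower, against 31.7% of protein-coding genes. They included LMO2 (14.2 and 14.8 to 3.19 and 2.44 FPKM), ISL2 (5.40 and 5.09 to 0.377 and 1.22 FPKM) and LDB1, the cofactor that LIM domains bind, which fell from 75.8 and 77.0 to 22.8 and 21.8 FPKM. The remaining calls only just passed the fold of 2, with log2 fold changes of -1.04 and -1.01. Most of the 18 genes on that list were too low to test. Of 31 other ZBTB genes, 12 were lower (38.7%) and 7 higher (22.6%), near the shares of all protein-coding genes, with ZBTB11 rising from 4.39 and 4.49 to 32.3 and 32.1 FPKM. Of 4 other genes of the DACH1 network, 2 were lower and 1 was higher. SIX5 fell from 2.43 and 2.199 to 0.336 and 0.382 FPKM, and EYA4 rose from 0 to 2.16 and 2.78 FPKM.

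Immune and death-domain signalling was represented by CARD6 and EDARADD, among others. CARD6 (ENSG00000132357, chr5:40841308-40860175, plus strand), a caspase recruitment domain protein, had 1.95 and 1.71 FPKM in the control libraries and 0.136 and 0.180 FPKM in the GNE987 libraries. EDARADD (ENSG00000186197, chr1:236348257-236502915, plus strand), the death-domain adaptor of the ectodysplasin receptor, had 1.47 and 1.66 FPKM in the control libraries and 0.120 and 0.142 FPKM in the GNE987 libraries. CARD6 was 11.5-fold lower on 12 GNE987 reads and EDARADD 11.9-fold lower on 9. EDAR, the receptor of EDARADD, moved the other way, from 0.0491 and 0 to 1.59 and 1.31 FPKM.

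Among 18 other TNF receptor adaptor and CARD genes, 7 were lower (38.9%) and 5 higher (27.8%), near the 31.7% and 23.9% of all protein-coding genes. TRAF1 rose from 0.0202 and 0 to 3.15 and 3.30 FPKM and CARD9 from 0.259 and 0.331 to 5.93 and 5.70 FPKM. Among 8 genes of RNA sensing tested, 5 were lower and 3 higher. MAVS, the mitochondrial adaptor of RNA sensing, fell from 17.8 and 19.1 to 3.68 and 4.43 FPKM, and DHX58 rose from 0.0904 and 0.212 to 2.61 and 2.15 FPKM.

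HACE1, MID1 and LONRF1 encode proteins with the RING or HECT domains of ubiquitin ligases. HACE1 (ENSG00000085382, chr6:104728094-104859919, minus strand), a HECT ligase that targets active RAC1, had 1.36 and 1.32 FPKM in the control libraries and 0.168 and 0.184 FPKM in the GNE987 libraries. MID1 (ENSG00000101871, chrX:10445310-10833654, minus strand), a microtubule-bound ligase, had 1.12 and 1.22 FPKM in the control libraries and 0.180 and 0.171 FPKM in the GNE987 libraries. LONRF1 (ENSG00000154359, on chromosome 8), with LON and RING domains, had 1.08 and 1.201 FPKM in the control libraries and 0.0631 and 0.140 FPKM in the GNE987 libraries. HACE1 was 7.60-fold, MID1 6.68-fold and LONRF1 11.1-fold lower. The reads of MID1 are uncertain, since exon lengths that differ by whole multiples all gave whole reads, so that its 982 control and 56 GNE987 reads may be 491 and 28, with an interval of 4.56 to 10.2 in place of 5.10 to 8.90. HACE1 lies 76697 bases from LIN28B, a repressor of let-7 processing, which itself fell from 17.6 and 19.0 to 2.57 and 2.47 FPKM.

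In RNA and DNA processing, U2AF1 looked like one of the largest falls but is uncertain. U2AF1 (ENSG00000160201, chr21:43092956-43107570, minus strand) encodes the small subunit of the factor that marks the 3′ splice site, and had 1.88 and 3.36 FPKM in the control libraries and 0.161 and 0.0918 FPKM in the GNE987 libraries. The reference holds a near-identical copy on the same chromosome, at chr21:6484623-6499248 and typed as an artifact by GENCODE, that was listed at 0.906 and 0.927 FPKM in control and at 0.301 and 1.80 FPKM with GNE987. Summed, both places held 712 and 1055 reads in control and 43 and 186 reads with GNE987, or 0.463 and 1.90 FPKM, above the threshold of 0.2. From these sums the fall was 2.94-fold (95% counting interval 2.56 to 3.39). That interval does not cover the wide gap between the 2 GNE987 libraries, so the size of the fall is poorly known. How the counting split reads that match both places is not given in the sources used here, so the value of U2AF1 alone is uncertain. U2AF2, the large subunit, stood at 80.3 and 84.99 FPKM in control and at 88.9 and 90.4 FPKM with GNE987. DTWD2 (ENSG00000169570, chr5:118836074-118988547, minus strand), a tRNA modification enzyme, had 1.57 and 1.64 FPKM in the control libraries and 0.181 and 0.196 FPKM in the GNE987 libraries. EXD2 (ENSG00000081177, chr14:69191498-69244020, plus strand), an exonuclease of DNA repair and mitochondria, had 1.15 and 1.03 FPKM in the control libraries and 0.0764 and 0.163 FPKM in the GNE987 libraries. DTWD2 was 8.50-fold lower and EXD2 9.05-fold lower, each on fewer than 20 GNE987 reads.

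Metabolic and secreted enzymes included FUT1 and GYG2. FUT1 (ENSG00000174951, chr19:48748011-48755390, minus strand), the fucosyltransferase that makes the H antigen of the ABO system, had 1.09 and 1.31 FPKM in the control libraries and 0.0275 and 0.0783 FPKM in the GNE987 libraries. It had the lowest mean with GNE987 of all 33 genes, and 235 control reads against 4 with GNE987 gave a fall of 22.4-fold. GYG2 (ENSG00000056998, chrX:2828822-2882818, plus strand), a glycogenin that primes glycogen, had 1.31 and 1.16 FPKM in the control libraries and 0.196 and 0.186 FPKM in the GNE987 libraries. GYG2 fell less, 6.47-fold.

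Related enzymes were mixed. FUT4 fell from 4.87 and 4.89 to 0.533 and 0.486 FPKM and FUT8 from 1.75 and 1.653 to 0.125 and 0.254 FPKM, and 4 of 6 other fucosyltransferases tested were lower and 1 higher. GYG1, the main glycogenin of muscle, fell from 9.38 and 9.80 to 3.47 and 3.07 FPKM. Glycogen breakdown genes included large rises, with the phosphorylase PYGM from 0.122 and 0.0635 to 114 FPKM in both libraries and PHKG1 from 0.598 and 0.589 to 24.7 and 27.6 FPKM. Of 13 other glycogen genes, 6 were lower (46.2%) and 2 higher (15.4%), against 31.7% and 23.9% of all protein-coding genes.

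Transporters were SLC35G1, NIPAL3 and SLC25A29. SLC35G1 (ENSG00000176273, chr10:93893973-93956062, plus strand), of the nucleotide-sugar transporter superfamily, had 1.55 and 1.56 FPKM in the control libraries and 0.140 and 0.0830 FPKM in the GNE987 libraries. NIPAL3 (ENSG00000001461, chr1:24415802-24472976, plus strand), of the NIPA magnesium transporter family, had 1.21 and 1.21 FPKM in the control libraries and 0.140 and 0.193 FPKM in the GNE987 libraries. SLC25A29 (ENSG00000197119, chr14:100291116-100306547, minus strand), a mitochondrial carrier of basic amino acids, had 1.11 and 1.03 FPKM in the control libraries and 0.193 and 0.198 FPKM in the GNE987 libraries. SLC35G1 was 14.0-fold lower (95% counting interval 8.11 to 26.5). SLC25A29 kept the largest share of its level among the 33, 18.2%, and was 5.50-fold lower (95% counting interval 3.66 to 8.61). Of 40 other mitochondrial carriers tested, 11 were lower (27.5%), 10 higher and 19 neither, near the 31.7% and 23.9% of all protein-coding genes. SLC25A18 rose from 0.0641 and 0.0858 to 14.2 and 13.3 FPKM and SLC25A34 from 0.0136 and 0.0990 to 1.42 and 1.45 FPKM.

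The remaining 5 genes have little in common. MTLN (ENSG00000175701, chr2:110211529-110245420, minus strand) encodes a mitochondrial micropeptide tied to fatty acid oxidation, and had 5.72 and 4.12 FPKM in the control libraries and 0.117 and 0.166 FPKM in the GNE987 libraries. It was 34.8-fold lower (95% counting interval 14.8 to 108), the second largest fall of the set by its reads. CCDC107 (ENSG00000159884, chr9:35658290-35661511, plus strand) had 3.33 and 1.95 FPKM in the control libraries and 0 and 0.155 FPKM in the GNE987 libraries. It was the only gene of the 33 at 0 in a GNE987 library, its control libraries differed by over 1.5-fold, and its fall of 33.3-fold (95% counting interval 9.08 to 277) rested on 2 GNE987 reads. CCDC107 shares 1111 exon bases with ARHGEF39 on the opposite strand, which fell from 2.97 and 2.98 to 0.939 and 0.663 FPKM. TUBAL3 (ENSG00000178462, chr10:5393101-5404828, minus strand), an alpha-tubulin-like gene, had 1.93 and 2.59 FPKM in the control libraries and 0.1996 and 0.189 FPKM in the GNE987 libraries. CCDC102A (ENSG00000135736, chr16:57512181-57536571, minus strand) had 1.43 and 1.30 FPKM in the control libraries and 0.0926 and 0.132 FPKM in the GNE987 libraries. C15orf61 (ENSG00000189227, chr15:67521131-67530146, plus strand) had 1.48 and 1.29 FPKM in the control libraries and 0.199 and 0.165 FPKM in the GNE987 libraries. The last 3 genes were 11.6-fold, 12.1-fold and 7.64-fold lower.

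**Figure D3:**
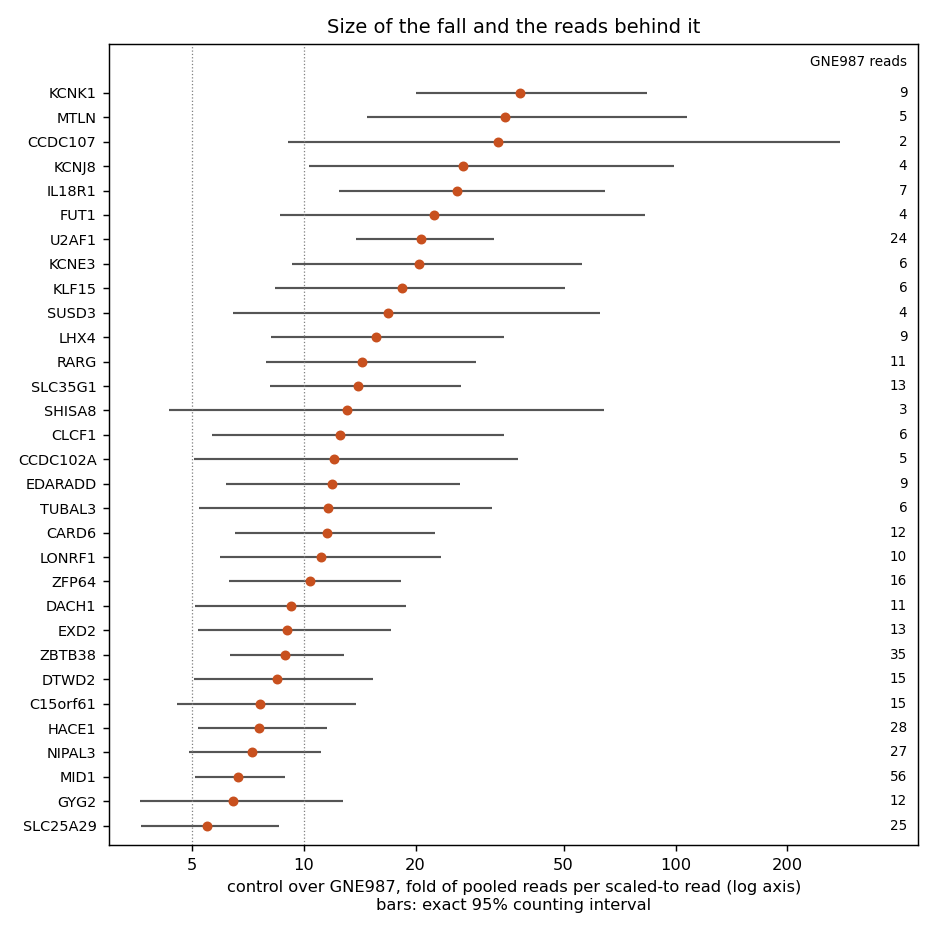
Fall of 31 of the 33 genes as control over GNE987, from reads pooled over both libraries of a group and divided by the reads each library was scaled to (log axis). Bars are exact 95% intervals for counting error and the figures at the right are the GNE987 reads. The intervals of CCDC107 (2 reads) and SHISA8 (3 reads) are the widest on this axis, and that of MID1 (56 reads) is narrow.

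Over the set, falls ran from 5.50 to 38.2-fold with a median of 11.9. The interval for counting error lay wholly above 5-fold for 27 of the 33 genes, above 10-fold for 5 (KCNK1, MTLN, KCNJ8, IL18R1 and U2AF1, the last without its copy) and below 10-fold for 2 (SLC25A29, and MID1 at its higher read number). The upper limit of the pooled GNE987 level was at or under 0.2 FPKM for 7 genes and above it for 26, up to 0.472 FPKM for SUSD3. At most 5 GNE987 reads were behind 7 genes, at most 10 behind 16 and at most 20 behind 27. Intervals cover counting error only, and the reads carry no molecular identifiers. For 7 genes the reads came out whole at the annotated exon length and for 26 at another length, which is a weaker basis. For 17 genes a length 2 times that used also gave whole reads within the range searched, and their reads would then be 2 times as many and their intervals narrower. MID1 was the only gene for which a shorter length did so.

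Membership turns on where a gene began as well as on how far it fell. The genes' control means ran from 1.07 to 5.50 FPKM, 23 of them under 2 FPKM, while the median of all expressed genes was 7.14 FPKM. A share left of at most 18.2%, the largest among the 33, was found in 535 expressed genes, of which 502 are not in the set and 164 began above 10 FPKM. F2RL3, a thrombin receptor gene, kept the smallest share of all (1.97%) from 11.7 and 13.6 FPKM, but ended at 0.172 and 0.326 FPKM. HEMGN, an erythroid gene, kept 3.33% of 23.6 FPKM and ended at 1.05 and 0.521 FPKM.

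**Figure D4:**
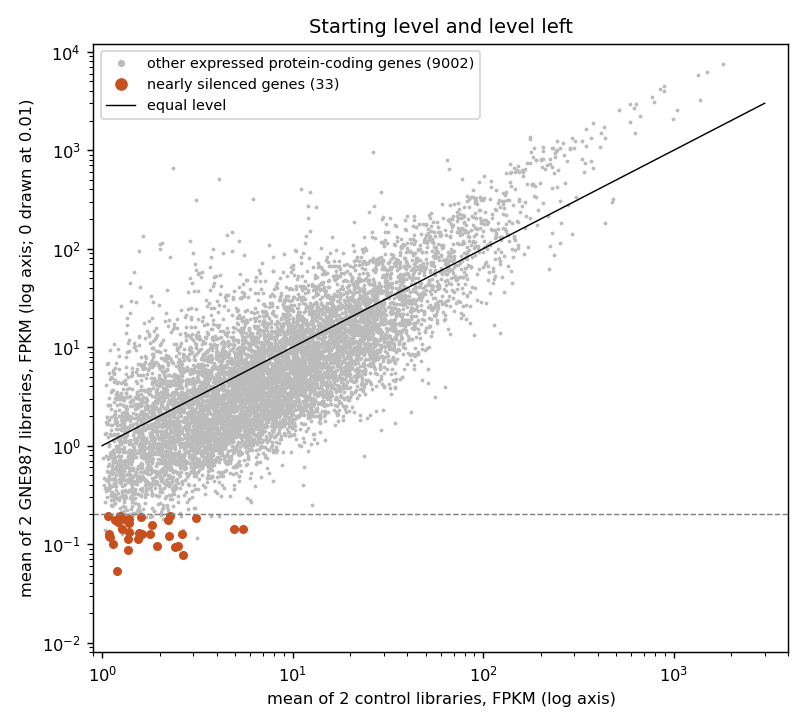
Mean of the 2 GNE987 libraries against the mean of the 2 control libraries for the expressed protein-coding genes (both axes in FPKM, log), with 33 nearly silenced genes in orange and 9002 others in grey. The dashed line is 0.2 FPKM and the solid line equal levels. The orange points all lie at the left edge, between 1.07 and 5.50 FPKM in control.

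Just inside the upper threshold stood TUBAL3 (highest GNE987 value 0.1996 FPKM), C15orf61 (0.199), SLC25A29 (0.198) and GYG2 (0.196), and just outside it FHIP2A (0.201), ANKRD55 (0.201), UBASH3A (0.203) and RAG1 (0.203). UBASH3A, with 1 and 7 GNE987 reads, kept 3.72% of its control level, and IL18R1, inside the threshold, kept 3.82%. Among those just inside the control threshold were SLC25A29 (lowest control value 1.03 FPKM), EXD2 (1.03) and DACH1 (1.06), and just outside it MREG (0.966), CEP41 (0.964), TRIM6 (0.957) and PARP9 (0.938). Without GNE987 library 1 the same thresholds took 60 genes and without GNE987 library 2 they took 74, the 33 included in both.

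The surroundings of the genes were quiet. The nearest protein-coding gene of GENCODE on each side, 66 in all, had a mean of at least 0.5 FPKM in 22 cases (33.3%), against 67.5% for the 9002 other expressed genes and 62.4% for the 3648 of these that began in the same range as the set. Both neighbours were under 0.5 FPKM for 13 of 33 genes (39.4%), against 12% of the other expressed genes and 14.6% of those in the same range. The median distance to the nearer neighbour was 8328 bases, and 510 bases for the other expressed genes. No gene of the set was next to another.

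**Figure D5:**
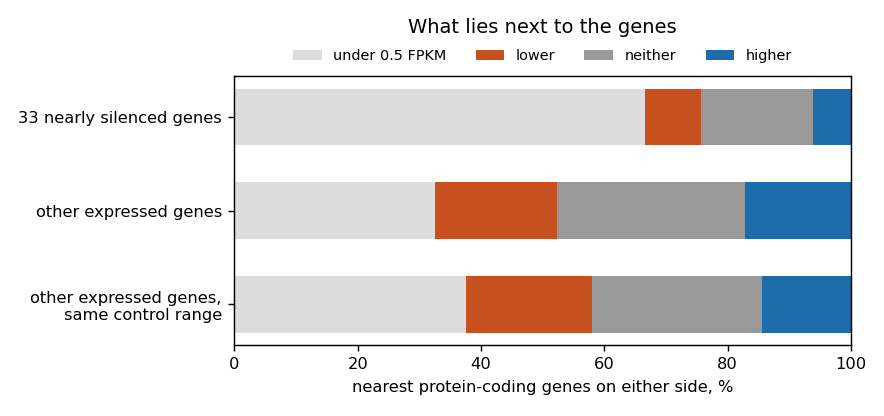
Nearest protein-coding genes on either side, as a share in %, of the 33 nearly silenced genes, of 9002 other expressed genes and of 3648 others in the same control range, split into genes under 0.5 FPKM (light grey), lower (orange), neither (dark grey) and higher (blue) with GNE987. The light grey share is 66.7% in the first bar.

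Of the 22 neighbours that could be tested, 6 were lower (27.3%) and 4 higher (18.2%) with GNE987, against 31.7% and 23.9% of protein-coding genes. Those lower included ARHGEF39, DCAF5, RASA2, MAP2K5 and LIN28B, next to CCDC107, EXD2, ZBTB38, C15orf61 and HACE1. DCAF5 fell from 4.71 and 5.16 to 0.634 and 0.574 FPKM. Neighbours that rose included QSOX1, TNFRSF13C and RPL37, next to LHX4, SHISA8 and CARD6. RPL37, a ribosomal protein gene 6086 bases from CARD6, rose from 43.6 and 42.7 to 223 and 207 FPKM, and SREBF2, 2237 bases from SHISA8, was at 22.8 and 23.3 FPKM in control and at 31.7 and 33.8 FPKM with GNE987.

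Further features were set beside those of the expressed genes where such values were at hand. Exon length had a median of 4751 bases against 5315 in the other expressed genes, and annotated transcripts a median of 6 against 9. The genes lay on 19 chromosomes, with 6 on chromosome 1 (18.2%), which held 10.4% of the expressed genes. Of the study's list of 1055 genes near super-enhancers in NB4 cells, 1002 could be matched here, and CLCF1 was the only one of the 33 on it (3.03%), against 6.60% of the expressed genes. None of the 33 was among the 184 matched names of the list shared by at least 10 leukemia samples, which held 1.02% of the expressed genes. Exon bases were shared with another gene for 15 of the 33 and with none for 18, with no such count for the other expressed genes to set beside it. Unlike the neighbours, these features were not compared within the same range of control levels. Whether the low starting levels account for the differences was not tested.

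Over the 12 lists together, each gene counted once, 67 of 169 other genes tested were lower (39.6%), 43 were higher (25.4%) and 59 were neither, against 31.7% and 23.9% of protein-coding genes. The share depended on the scale. Scaled to GAPDH, 118 were lower (69.8%) and 18 higher (10.7%), against 72.5% and 10.3% of protein-coding genes. Scaled to the total of recovered reads, 90 were lower (53.3%) and 29 higher (17.2%), against 50.9% and 15.5%. After quantile normalization, which gives all libraries the same distribution, 80 were lower (47.3%) and 32 higher (18.9%), against 39.9% and 17.9%. The larger share lower on the deposited scale was thus not seen when scaled to GAPDH but was seen after quantile normalization. GAPDH is no steady reference here, since it stood at 398 and 432 FPKM in control and at 1501 and 1499 FPKM with GNE987 as deposited. The log2 fold change of each of the 33 genes stayed below 0 as deposited and on the GAPDH and total-read scales. The choice of genes fixed this in advance, since both of those scales lower GNE987 values further against control. The median over the 33 genes was -2.91 as deposited, -3.55 scaled to GAPDH and -3.27 scaled to total reads.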

How the data were processed

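RNA-seq was performed on NB4 cells, with 2 control and 2 GNE987 libraries grouped by their labels. The authors mapped the reads with HISAT and deposited 1 FPKM value for each gene in every library. The submitters' processing notes name HISAT2 2.0.5 and hg38, and the program that counted the reads is not given in the sources used here. No column was left unused. The members and gene lists were chosen with earlier results of these data known, and the lists after reading the study's table of lowered genes.

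Genes were matched by identifier to GENCODE release 44 (GRCh38). Whole reads were worked out for each gene from how its FPKM differs between libraries, with a tolerance of 0.01 read for a whole number, and 53.0% of 32895 genes were whole at the annotated exon length. The others were searched for another length. Folds of single genes used reads pooled over 2 libraries, with exact conditional binomial 95% intervals.

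For neighbours and lists, log2(FPKM + 0.1) was tested with limma 3.58.1 in R 4.3.3 (empirical Bayes with trend, no replicate block) over 16668 genes, those whose mean in the 4 libraries was 0.5 FPKM or more. Calls needed an unadjusted p under 0.05 and a fold over 2, as in the study's methods, and adjusted values are Benjamini-Hochberg over all tested genes. A fold change on this scale understates the change of low genes. In simulated data for GNE987 against control, 195 of 195 changed genes were called with the right sign among 12763 genes tested, with 122 calls among 12568 unchanged ones. That simulation changed few genes, all well covered and by large folds. It assumed a fixed variation between libraries and no shift of scale between groups. It therefore checks the code and does not give the error rates of the real comparison, where many genes changed. Deviations of libraries with the same replicate number correlated at 0.00537, so the numbers were not taken as pairs.

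Members were named by function, 31 of the 33, and the other 2, with some genes that the naming rule takes, are counted but not reported here. From each list, up to 2 other genes with the largest called changes were named, and at each threshold up to 4 genes on either side. Partners of members (RARA, RXRA, RARB, EDAR, IL18RAP, KCNQ1, ABCC9, IL6ST, LIFR, GYG1, U2AF2, LDB1), neighbours, and F2RL3, HEMGN and UBASH3A were named after their values were seen. Promoter windows came from RefSeq (GRCh38.p14) and 28 of 33 members matched by symbol. Alternatives were other thresholds, filters, pseudocounts, scalings, limma-voom on recovered reads, a replicate block and leaving out each library.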

Additional observations from a re-analysis of the deposited data

How the results depend on the processing

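The number of genes that met the rule depended on its thresholds and scale. It was 3 at a maximum of 0.1 FPKM, 274 at 0.5 FPKM, 6 at a control minimum of 2 FPKM, 543 scaled to GAPDH (31 of the 33 shared), 123 scaled to total recovered reads, and 36 to 74 when 1 library was left out, 60 without GNE987 replicate 1 and 74 without GNE987 replicate 2. The 33 held at least 20 recovered reads in each control library. Scaling to GAPDH and to total reads moved the median log2 fold change of all tested genes by -1.70 and -0.74.

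Genes called in limma were 4148 lower and 5602 higher over all tested genes. Scaled to GAPDH these were 9694 and 3004, neighbours 17 lower and 0 higher, and list genes 118 and 18. Scaled to total reads 6649 genes and 12 neighbours were lower. With no filter 8757 genes were higher, 11 neighbours lower and 65 list genes higher. Leaving out 1 library, with the lone library of its group taken to vary like the other group, gave 3714 to 4101 lower and 4978 to 5374 higher genes, 6 to 7 lower and 4 to 6 higher neighbours, and 60 to 66 lower and 40 to 43 higher list genes. A replicate block gave 4186 lower and 5667 higher genes, 6 and 4 neighbours and 67 and 43 list genes. Under each of the other alternatives counts stayed within 1.5 times those reported. No alternative turned the direction of any of the 33 genes, but thresholds that require a large fall leave little room for that. With 2 libraries in a group and at most 56 reads behind a GNE987 value, order among the 33 genes is limited by counting error.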

Other observations

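The same FPKM thresholds took 113 genes when no gene type was required. Besides 34 protein-coding genes there were 20 miRNA, 18 lncRNA and 9 processed pseudogene entries. The miRNA entries had a median exon length of 81 bases and a median of 11 control reads, and 1 of 20 reached 20 control reads. The lncRNA entries had a median of 76.5 control reads, and all 18 reached 20.

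MIR223HG (ENSG00000274536, chrX:66015414-66020426, plus strand), the host transcript of miR-223, stood at 22.8 and 21.8 FPKM with no treatment, from 1902 and 1750 reads, and was listed at 0 in both GNE987 libraries. EMSLR (ENSG00000232445, chr7:101308270-101314800) was at 2.77 and 3.78 FPKM in control, from 315 and 413 reads, and was also listed at 0 in both. WT1-AS (ENSG00000183242, chr11:32435518-32500632), antisense to WT1, was at 1.21 and 1.36 FPKM in control and at 0.0215 and 0.0611 FPKM with GNE987, and reads of antisense partners cannot be told apart where the counting is not stated to use strand. No fold is given against a value listed at 0.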
